A study of Mus musculus with 11 samples.

Results

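Calb2 and Hpcal1 head a group of 10 genes for EF-hand calcium buffers and neuronal calcium sensors, which were followed in sorted J-RGCs of Tbr1 KO and WT mice. J-RGCs are retinal ganglion cells that prefer 1 direction of motion. The product of Tbr1 is a transcription factor of the T-box family. The 10 genes were picked by symbol, out of 24421 genes in the count files, with the genotype difference of Calb2 and Hpcal1 already known. All 10 had a row in every file. The Tbr1 KO group held 6 libraries from 4 animals, called KO a (2 libraries), KO b (2 libraries), KO c and KO d. The WT group held 5 libraries from 4 animals, called WT a, WT b (2 libraries), WT c and WT d. Every mouse was on a mixed C57BL/6 and CD1 background and was 4 to 5 days old. Each library came from 1 pool of 100 cells that a transgenic line specific to J-RGCs had marked with GFP and that flow cytometry had collected. The labels name neither the driver of that line nor the part of Tbr1 that was removed. Counts were summed per animal, so n = 4 animals per genotype throughout. Levels are TMM-normalised CPM, which are a gene's share of the reads in a library after scaling to a common composition.

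EF-hand proteins bind calcium in a helix-loop-helix fold. Buffers such as calretinin, calbindin and parvalbumin take up calcium and so shape how far and how long a calcium signal spreads in a neuron. Neuronal calcium sensors of the hippocalcin, visinin-like and NCS-1 types carry a myristoyl group, move to membranes when calcium binds, and act on channels, kinases and vesicle traffic. In the retina these proteins are in wide use as markers, with calretinin in many ganglion and amacrine cells and calbindin in horizontal and amacrine cells.

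Gene reads per library ran from 8609845 to 34718693, and 13897 to 15440 genes were detected per library. Tbr1 was at 133, 145, 94.2 and 106 CPM in KO animals a to d, against 193, 155, 166 and 165 CPM in WT animals a to d. The Tbr1 level was lower in every KO animal than in every WT animal. The removed part is unknown here, and whether the Tbr1 reads in KO animals came from exons that remain was not tested. Jam2, the adhesion gene that gives J-RGCs their name, was at 87.4 to 130.2 CPM in KO animals, against 452 to 619 CPM in WT animals. Ganglion cell markers were abundant in all animals, with a summed level over 15 genes of 17434 to 19484 CPM in KO animals and 17072 to 19686 CPM in WT animals. A few abundant genes make up most of that sum, and single markers differed. Of the 15 genes edgeR called 0 and DESeq2 called 1, and 6 had an unadjusted p under 0.05. Pou4f2, a transcription factor of ganglion cells, averaged 163 ± 37.7 CPM in KO and 282 ± 12.8 CPM in WT without overlap (edgeR adjusted p = 0.0681). Thy1, a surface protein of ganglion cells, averaged 316 ± 42.5 CPM in KO and 418 ± 35.0 CPM in WT, also without overlap (edgeR adjusted p = 0.355). Pou4f1 averaged 858 ± 97.0 CPM in KO and 1129 ± 168 CPM in WT. Isl1 averaged 699 ± 91.8 CPM in KO and 919 ± 174 CPM in WT, and both genes overlapped between genotypes. Nefl and Nefm, the others of the 6 with an edgeR unadjusted p under 0.05, went the other way, with overlap between genotypes. The neurofilament gene Nefl averaged 6121 ± 512 CPM in KO and 5030 ± 801 CPM in WT, and Nefm 1185 ± 191 and 876 ± 207 CPM in the same order. Over the 15 genes, log2 fold changes were positive for 7 and negative for 8. All of these single markers were named after their values were seen, and their part in the results was not tested. In bulk pools such as these, fewer cells of a type and less RNA per cell cannot be told apart.

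The calretinin gene Calb2 was lower and the sensor gene Hpcal1 was higher in KO animals, and neither overlapped between genotypes. The calbindin gene Calb1 was higher in KO animals at a much lower level, also without overlap. The other sensors Hpca, Ncald, Ncs1, Vsnl1 and Hpcal4 overlapped between genotypes, as did S100b, and parvalbumin (Pvalb) had no read in any library. Of the 10 genes, 9 passed the filter on low counts. The edgeR quasi-likelihood fit over all 13957 tested genes, with Benjamini-Hochberg adjustment at 0.05, called 1 of the 9 lower (Calb2) and 1 higher (Hpcal1). Over all genes it called 0.287%, of which 0.201% were lower and 0.086% were higher in KO. These calls were part of how the group was chosen, so the differences are given as a description and no test is drawn from them. Of all tested genes, 5.06% did not overlap between genotypes, 2.48% lower and 2.58% higher in KO, beside 1 lower and 2 higher of the 9.

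**Figure D1:**
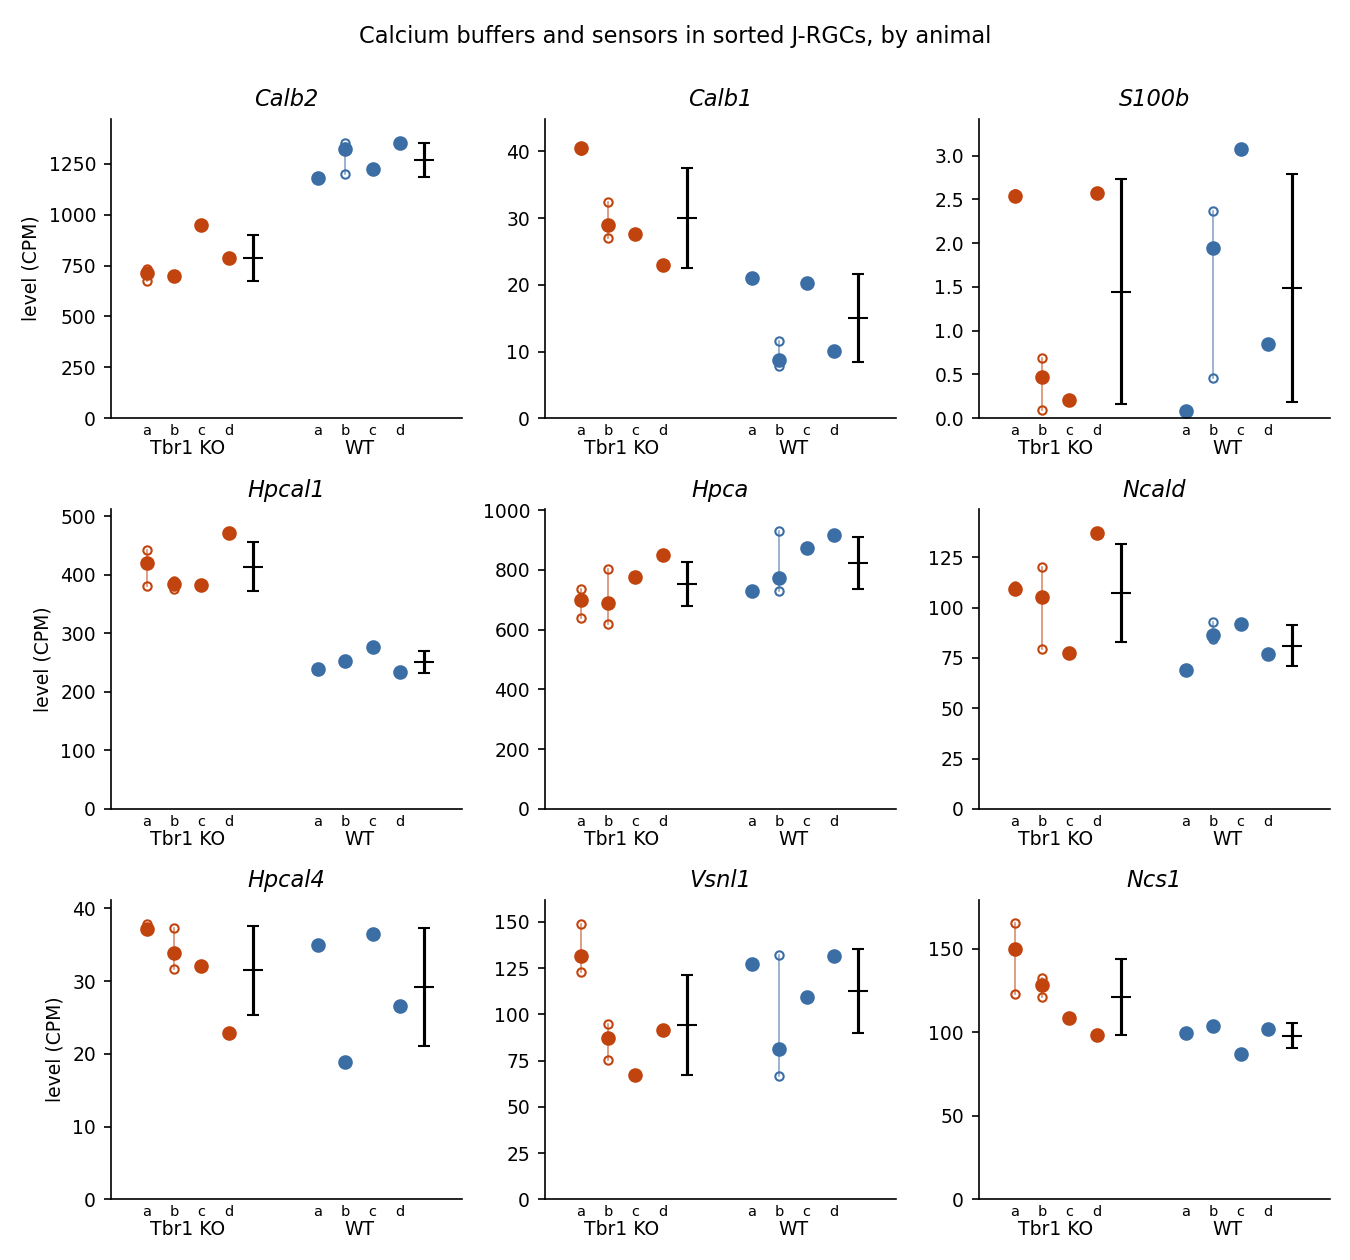
Level in CPM of 9 genes by animal, Tbr1 KO at left and WT at right of each panel, where a filled point is 1 animal (a to d), open points joined by a line are the 2 libraries of that animal, and the black bar is the mean ± SD over 4 animals. Calb2 sits at 700.4 to 949 CPM in KO and at 1179 to 1354 CPM in WT, and Hpcal1 at 381 to 471 CPM in KO and at 234 to 277 CPM in WT.

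Calretinin is a high-affinity buffer of the calbindin family, encoded by Calb2 (GRCm38 chromosome 8, 110137502 to 110168210, minus strand). Calb2 was at 712, 700.4, 949 and 785 CPM in KO animals a to d, against 1179, 1320.5, 1223 and 1354 CPM in WT animals a to d. The highest KO animal, c, lay below the lowest WT animal, a, and the other 3 KO animals lay close together. The means were 787 ± 114 CPM in KO and 1269 ± 82.2 CPM in WT (SD, n = 4 each). That is a log2 fold change of -0.69 ± 0.11 (SE), or 0.620 times the WT level. Pools of 1 animal differed by 0.12 (KO a), 0.017 (KO b) and 0.17 (WT b) on the log2 scale. The animals ranged over 0.44 in KO and 0.20 in WT, so the WT b pools differed nearly as much as the WT animals. The 2 pools of KO a were at 735 and 674 CPM, those of KO b at 703 and 695 CPM, and those of WT b at 1352 and 1200.5 CPM.

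Hpcal1 (chromosome 12, 17690856 to 17791933, plus strand) encodes hippocalcin-like protein 1, also known as VILIP-3, a myristoylated sensor best known from cerebellar Purkinje cells. Its level was 419, 384, 381 and 471 CPM in KO animals a to d, against 239, 253, 277 and 234 CPM in WT animals a to d. The lowest KO animal stood above the highest WT animal by more than the whole range of the WT animals. Mean levels were 414 ± 41.6 CPM in KO and 251 ± 19.2 CPM in WT (SD, n = 4 each), a log2 fold change of 0.72 ± 0.11 (SE), or 1.65 times the WT level. The pools were at 441 and 381 CPM for KO a, 389 and 376 CPM for KO b, and 253 and 251 CPM for WT b. On the log2 scale those of KO a differed by 0.21, where KO animals ranged over 0.30 and WT animals over 0.24. Pools of KO b and WT b differed by 0.048 and 0.014.

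Both calls held in all 11 alternatives of scaling, filter, test and unit of replication, and each was lost in several fits that left out 1 animal. Among the 11, the fits on separate libraries, with or without a block for library number, enter 3 animals with 2 pools each. The animal is not the replicate in those fits. The genes were chosen with these calls known, so the count of fits describes dependence on settings and is no separate test. Of the 8 fits with 7 animals, Calb2 was called in the 2 without WT a or KO c, and Hpcal1 in the 3 without WT a, WT c or KO c. In those 8 fits the log2 fold change of Calb2 ran from -0.79 to -0.64 and that of Hpcal1 from 0.66 to 0.77, while the number of genes called over all ran from 17 to 44.

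**Figure D2:**
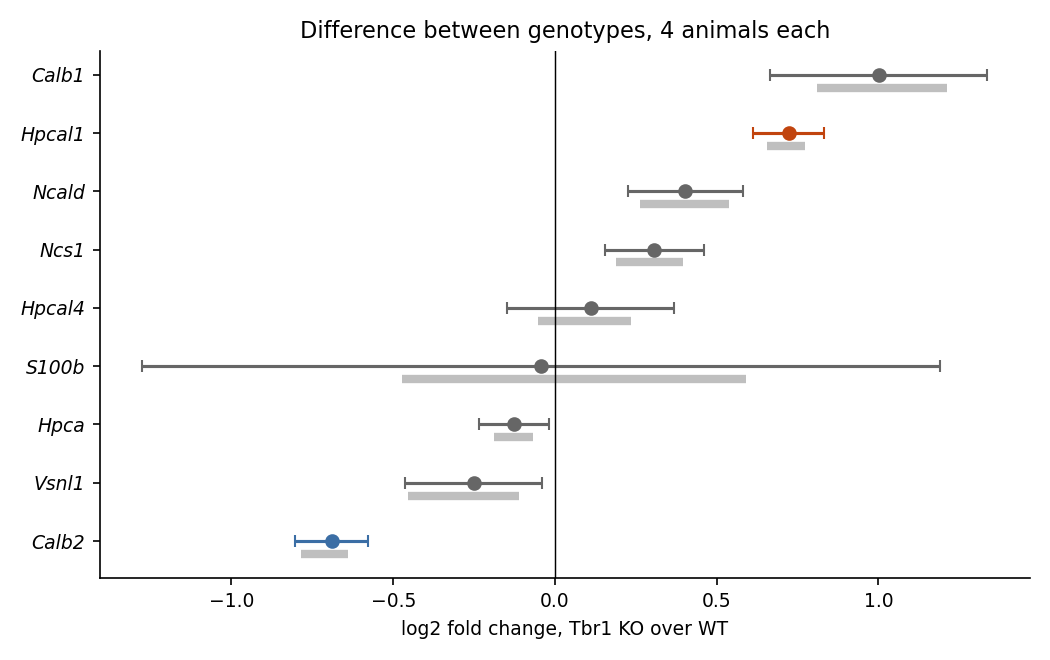
Log2 fold change of each gene, Tbr1 KO over WT, where points are the fitted value, bars are ± 1 SE over 4 animals per genotype, and the thick grey line below each is the range over the 8 fits that leave out 1 animal. Orange marks Hpcal1 (higher, called) and blue marks Calb2 (lower, called). The range of Calb2 stays at -0.64 or below, that of Hpcal1 at 0.66 or above, and those of Hpcal4 and S100b cross 0.

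The 250 bases before the annotated start of Hpcal1 are shown because this gene was the sensor called higher, and those before the outer of 2 annotated starts of Pvalb because that gene gave no read. Capitals mark GGTGTG or its reverse complement CACACC, the core of the half-site that T-box factors are known to bind. Sequences are 5′ to 3′ on the gene's strand, from RefSeq on GRCm38.p6, Hpcal1 at chr12:17690559-17690808 (plus) and Pvalb at chr15:78206401-78206650 (minus).
Hpcal1: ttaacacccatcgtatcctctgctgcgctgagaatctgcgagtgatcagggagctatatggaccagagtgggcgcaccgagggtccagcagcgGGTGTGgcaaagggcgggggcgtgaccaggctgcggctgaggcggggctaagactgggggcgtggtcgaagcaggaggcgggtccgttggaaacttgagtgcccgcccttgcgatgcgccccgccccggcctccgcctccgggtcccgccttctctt
Pvalb: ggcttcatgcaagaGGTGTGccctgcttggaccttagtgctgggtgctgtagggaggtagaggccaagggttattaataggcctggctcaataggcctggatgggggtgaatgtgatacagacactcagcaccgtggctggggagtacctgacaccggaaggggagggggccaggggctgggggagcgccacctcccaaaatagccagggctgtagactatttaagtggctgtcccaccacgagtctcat
Each of the 2 windows shown held 1 match. It ended 151 bases before the start in Hpcal1 and 230 bases before the start in Pvalb. RefSeq sequences were at hand for 7 of the 10 genes, in 11 windows, since some genes have several starts, and Calb2, Calb1 and Ncald are named only. In the 250 bases before the start, 4 of the 11 windows held GGTGTG on either strand (the 1 window of Hpcal1, 1 of 2 of Pvalb, 1 of 3 of Hpca and 1 of 2 of Vsnl1). Of all 32851 promoters, 16.3% held it. The longer GGTGTGA, which contains GGTGTG, was in 0 of the 11 windows and in 3.33% of all promoters, and AGGTGTGA in 0 of the 11 and in 1.12% of all. The Hpcal1 window was 66.8% G and C with 22 CG pairs and the Pvalb window 58.4% with 4, against medians of 52.4% and 6 over all promoters.

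Hippocalcin, encoded by Hpca (chromosome 4, 129111570 to 129122036, minus strand), is the closest relative of Hpcal1 in this group and is known for gating a slow potassium current after bursts of spikes. Hpca was at 700.1, 689, 775 and 849.7 CPM in KO animals a to d, against 729, 775, 872 and 916 CPM in WT animals a to d. These ranges overlapped, and the fitted log2 fold change was -0.13 ± 0.11 (SE). The 2 pools of WT b (728 and 931 CPM) differed by 0.35 on the log2 scale, where WT animals ranged over 0.33. Those of KO b (620 and 802 CPM) differed by 0.37, where KO animals ranged over 0.30. The coding sequences of Hpcal1 and Hpca were 86.0% identical over 579 bases, and their longest shared run was 38 bases. Hpca shared a run of 46 bases with Ncald, the longest among the 6 sensors. The files list reads aligned to several places (13.2% to 14.6% of listed reads) and ambiguous reads (1.31% to 1.47%) apart from the gene counts. The labels give no read length, and whether reads of such copies were lost or misplaced was not tested. Exons of Hpca also overlap exons of Tmem54 on the opposite strand. With no strand setting stated, whether reads there counted for Hpca or were set aside is unknown.

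The levels of this closely related pair were also set against each other. The ratio of Hpcal1 to Hpca, in CPM per kilobase of exon, was 0.848 to 1.03 in KO animals and 0.441 to 0.565 in WT animals. Its mean was 0.949 ± 0.0760 in KO and 0.529 ± 0.0593 in WT (SD, n = 4 each), which restates the higher Hpcal1 on a scale that does not depend on the library totals.

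Neurocalcin delta, encoded by Ncald (chromosome 15, 37366175 to 37792570, minus strand), is a sensor linked to vesicle traffic. Ncald was at 109, 105, 77.7 and 137 CPM in KO animals a to d, against 68.9, 86.5, 91.9 and 76.9 CPM in WT animals a to d. KO c lay inside the WT range and the other 3 KO animals above it, and the fitted difference of 0.40 ± 0.18 (log2, SE) was not called. Exons of Ncald overlap the predicted genes Gm49397 on the same strand and Gm28221 on the opposite one.

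Ncs1 (chromosome 2, 31245823 to 31295989, plus strand) encodes NCS-1, the mammalian form of frequenin, which binds phosphatidylinositol 4-kinase and eases transmitter release. Ncs1 was at 150.1, 128, 109 and 98.3 CPM in KO animals a to d, against 99.3, 104, 87.0 and 102 CPM in WT animals a to d. KO d lay inside the WT range and the other KO animals above it, and the fitted difference of 0.31 ± 0.15 (log2, SE) was not called.

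Vsnl1 (chromosome 12, 11325242 to 11436613, minus strand) encodes VILIP-1, and Hpcal4 (chromosome 4, 123183227 to 123194701, plus strand) encodes VILIP-2, sensors whose coding sequences were 82.4% identical. Vsnl1 was at 132, 87.5, 67.1 and 91.5 CPM in KO animals a to d, against 127, 81.5, 109.6 and 132 CPM in WT animals a to d. The genotypes overlapped, with KO a and WT d both at 132 CPM, and the log2 fold change was -0.25 ± 0.21 (SE). The 2 pools of WT b, at 66.7 and 132 CPM, differed as much as the animals did. Hpcal4 was at 37.2, 33.8, 32.1 and 22.9 CPM in KO animals a to d, against 34.9, 18.9, 36.5 and 26.6 CPM in WT animals a to d. Animals of both genotypes were mixed along the range, and the fitted difference was 0.11 ± 0.26 (log2, SE). Over the 6 sensors, 4 had positive and 2 had negative log2 fold changes, with a median of 0.21, beside a median of -0.00071 over all tested genes. The 6 include Hpcal1, on which the group was chosen, so their median is a description only.

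Calbindin-D28k, encoded by Calb1 (chromosome 4, 15881264 to 15908064, plus strand), is the buffer most like calretinin. Calb1 was at 40.5, 29.0, 27.6 and 22.9 CPM in KO animals a to d, against 21.01, 8.68, 20.3 and 10.05 CPM in WT animals a to d. KO d and WT a were close neighbours on the 2 sides of the gap, and within WT the animals formed a higher pair (a and c) and a lower pair (b and d). Means were 30.005 ± 7.43 CPM in KO and 15.009 ± 6.55 CPM in WT (SD, n = 4 each), a log2 fold change of 1.0004 ± 0.34 (SE). The fit over all genes did not call it under the main setting or under any of the 19 alternatives. Calb2 exceeded Calb1 in every animal, by 48.9 to 95.5 times per exon length in KO animals and by 156 to 423 times in WT animals.

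Markers of retinal cells that also carry calbindin were measured in the same animals. The summed level of 5 horizontal cell markers was 68.0 to 107 CPM in KO animals and 27.0 to 58.7 CPM in WT animals, without overlap. Most of it was Sept4 (73.7 ± 14.1 CPM in KO and 42.3 ± 11.2 CPM in WT), while Lhx1 was at 0 in all animals and Onecut1 averaged 0.624 CPM in KO and 0.200 CPM in WT. The sum of 10 amacrine markers was 899 to 1112 CPM in KO animals and 529 to 775 CPM in WT animals, also without overlap. Of these markers Pax6 averaged 279 ± 15.9 CPM in KO and 234 ± 4.74 CPM in WT, while Gad2 averaged 8.53 CPM in KO and 18.0 CPM in WT and Chat and Th averaged under 1 CPM in both. The part of these cells in the levels of Calb1, Calb2 and Hpcal1 was not tested. As mean log2 CPM over each list, horizontal markers differed by 0.46 (exact two-sided permutation p = 0.343) and amacrine markers by 0.041 (exact p = 0.914), KO minus WT.

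Photoreceptor RNA varied most between animals. The summed level of 19 photoreceptor markers was 69.5, 346, 1453 and 409.5 CPM in KO animals a to d, against 89.9, 114, 149 and 416 CPM in WT animals a to d. Each of the 16 tested photoreceptor markers was fitted as higher in KO (median 1.89 on the log2 scale), and edgeR called 0 of them. The mean log2 CPM of the list differed by 1.42, KO minus WT (exact two-sided permutation p = 0.229, where 0.0286 is the smallest possible). Recoverin (Rcvrn), the sensor of photoreceptors, named here after its values were seen, averaged 4.49 ± 4.79 CPM in KO and 1.31 ± 1.74 CPM in WT (SD, n = 4 each). The 8 bipolar markers summed to 59.9 to 264 CPM in KO and 57.6 to 96.4 CPM in WT. The part of these cells in the results was not tested.

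**Figure D3:**
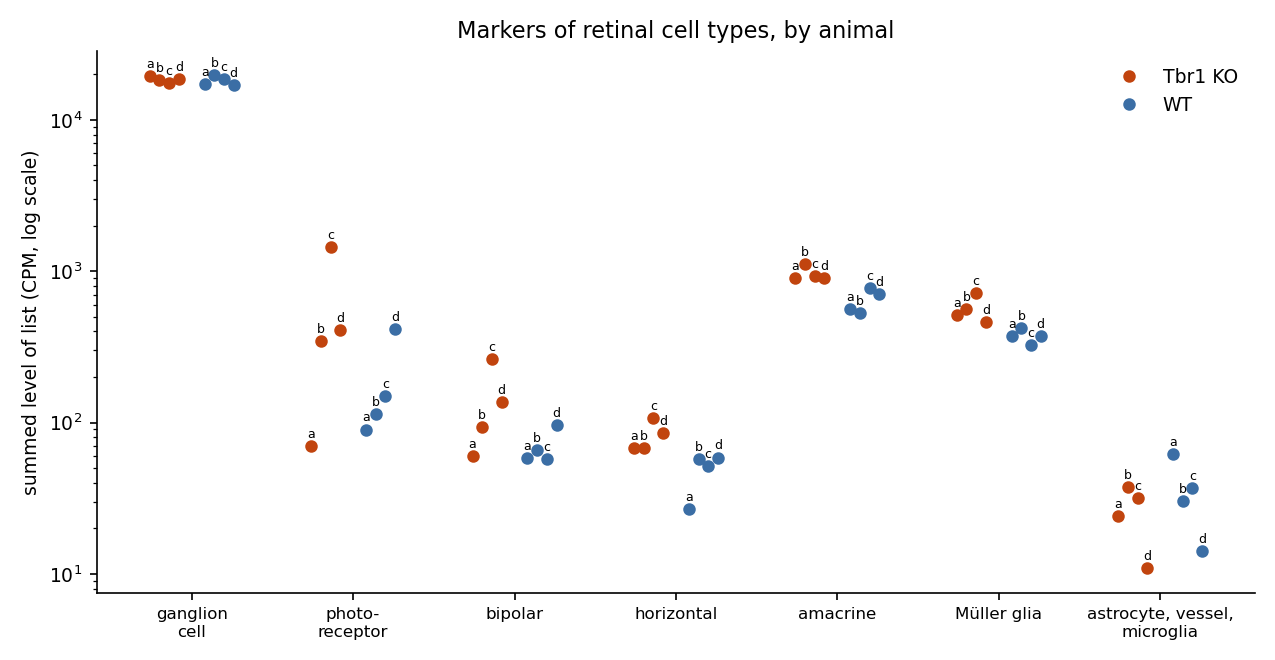
Summed level in CPM of marker lists of 7 retinal cell classes, on a log axis, 1 point per animal (a to d), Tbr1 KO left of WT in each class. Ganglion cell markers lie at 17072 to 19686 CPM in all animals, photoreceptor markers are highest in KO c at 1453 CPM, and horizontal, amacrine and Müller glia sums do not overlap between genotypes.

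S100b (chromosome 10, 76253853 to 76261159, plus strand) encodes a small EF-hand protein best known from astrocytes and other glia. S100b was at 2.54, 0.467, 0.207 and 2.57 CPM in KO animals a to d, against 0.0807, 1.94, 3.08 and 0.848 CPM in WT animals a to d. The KO animals all lay inside the WT range, with a 12.4-fold range among KO animals and a 38.2-fold range among WT animals. Its counts were as low as 2 reads in WT library 1 and in KO library 4, and the 2 pools of WT b gave 71 and 4 reads. Astrocyte, vessel and microglia markers (10 genes, S100b not among them) summed to 10.9 to 37.4 CPM in KO and 14.2 to 62.0 CPM in WT, and Müller glia markers (10 genes) to 464 to 717 CPM in KO and 323 to 423 CPM in WT. Each of the 9 tested Müller markers was fitted as higher in KO (median 0.76 on the log2 scale). Of these, edgeR called 2, Clu (adjusted p = 0.0465) and Dkk3 (adjusted p = 0.0495). As mean log2 CPM over the list, Müller markers differed by 0.67, KO minus WT (exact two-sided permutation p = 0.257). Aqp4, which is on both lists, averaged 0.585 CPM in KO and 0.725 CPM in WT. The part of these cells in the levels of S100b, Hpcal1 and the other genes was not tested.

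Parvalbumin is a slow-onset buffer of many interneurons and of some ganglion cells. Pvalb (chromosome 15, 78191114 to 78206400, minus strand) had 0 counts in each of the 11 libraries. A count of 0 in 296296800 gene reads allows up to 3 counts, or 0.0101 CPM, and within single libraries up to 0.0864 to 0.348 CPM. The limits cover counting error only, since the reads carry no molecular identifiers.

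Levels of different genes were compared per kilobase of exon. In WT animals the order was Calb2 (728 ± 47.2 CPM per kilobase), Hpca (282 ± 29.5), Hpcal1 (148 ± 11.3), Vsnl1 (57.5 ± 11.6), Ncs1 (21.1 ± 1.63), Ncald (9.45 ± 1.19), Hpcal4 (5.47 ± 1.53), Calb1 (3.10 ± 1.35), S100b (1.002 ± 0.881) and Pvalb at 0 (SD, n = 4). Hpcal4 and Calb1 overlapped over the WT animals, as did Calb1 and S100b, and no other neighbours did. In KO animals Calb2 was at 451 ± 65.7, Hpca at 258 ± 25.6 and Hpcal1 at 244 ± 24.5 CPM per kilobase (SD, n = 4). There Hpca and Hpcal1 overlapped, and Calb1 (6.19 ± 1.53) came before Hpcal4 (5.90 ± 1.15) with overlapping ranges.

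The most abundant 3 genes made up most of the summed level. Calb2 was 42.7% ± 4.18 of the 10-gene sum per kilobase in KO animals and 58.0% ± 2.01 in WT animals. Hpcal1 was 23.2% ± 2.08 in KO and 11.8% ± 1.07 in WT, and Hpca 24.5% ± 1.19 in KO and 22.4% ± 1.36 in WT (SD, n = 4 each). The sum over the 10 genes was 1053 ± 74.2 CPM per kilobase in KO and 1255 ± 66.5 in WT, while the 6 sensors together were at 553 to 657 in KO and 491 to 555 in WT. These shares follow in part from Calb2 and Hpcal1, on which the group was chosen.

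**Figure D4:**
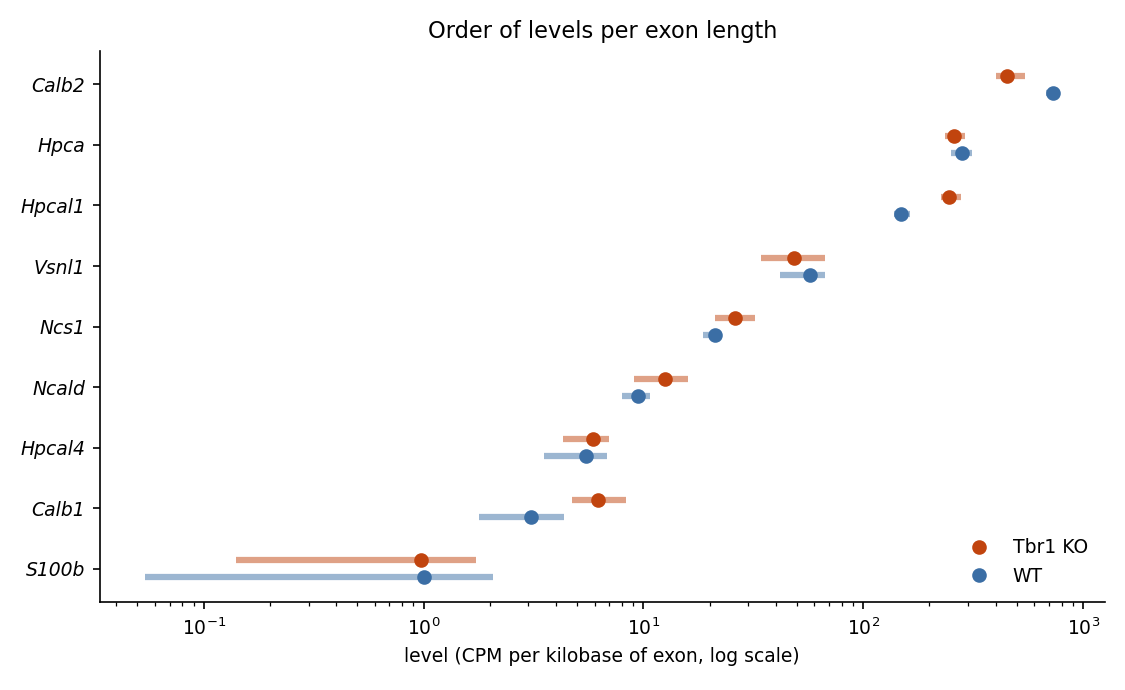
Level in CPM per kilobase of exon, on a log axis, for 9 genes ordered by the WT mean, Tbr1 KO above WT in each row. Points are means over 4 animals and bars the lowest to highest animal. Calb2 is first in both genotypes (451 in KO, 728 in WT), and Hpca and Hpcal1 overlap in KO but not in WT.

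The genes whose levels ran most like those of Calb2 over the 8 animals were sought among 7987 tested genes with a mean of at least 16 CPM. Likeness was the root mean square difference of log2 CPM after each gene was centred on its own mean. The 8 animals span both genotypes, so genes nearest to Calb2 or Hpcal1 share its genotype difference by construction. They are listed as a description only. The 5 nearest to Calb2 were Lrrc16a (0.134), Sil1 (0.143), Pomt1 (0.154), Lin37 (0.158) and Slc7a4 (0.163), where the median gene was at 0.461. Slc7a4, for one, averaged 96.7 CPM in KO and 145 CPM in WT. For Hpcal1 the 5 nearest were Clu (0.130), Pla2g7 (0.132), Bdp1 (0.142), Pitpnc1 (0.142) and Casc4 (0.144), with the median gene at 0.468. Pla2g7, which encodes a secreted phospholipase, averaged 206 CPM in KO and 135 CPM in WT. Clu, the clusterin gene, is itself one of the 2 Müller glia markers called higher, and averaged 103 CPM in KO and 60.1 CPM in WT. Whether Clu and Hpcal1 are linked was not tested.

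Beyond the 10 genes, calcium handling was surveyed over 6 lists drawn up by function, with 107 of 130 genes tested. The edgeR fit over all genes (Benjamini-Hochberg) called 1 higher and 1 lower, or 1.87%, beside 0.287% of all tested genes. Their median log2 fold change was -0.053, and 11 of 107 (10.3%) did not overlap between genotypes, beside 5.06% of all. The lists were drawn up with earlier results of these data known, so these shares are a description only.

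The gene called higher was Kcnip1, one of 12 tested of 19 other neuronal EF-hand genes. It encodes KChIP1, a subunit of A-type potassium channels that belongs to the same sensor family as hippocalcin. Kcnip1 was at 371, 279.9, 247 and 291 CPM in KO animals a to d, against 133, 124, 142 and 99.3 CPM in WT animals a to d. The log2 fold change was 1.26 ± 0.15 (SE), with an edgeR adjusted p of 0.00272, and all 19 alternatives called it, with adjusted p up to 0.0262. Its relative Kcnip4 was at 47.5 ± 28.2 CPM in KO and 64.1 ± 21.2 CPM in WT, and was not called. Necab2, for an EF-hand protein of neurons that binds G-protein coupled receptors, averaged 176 ± 16.1 CPM in KO and 243 ± 20.2 CPM in WT without overlap, with an edgeR adjusted p of 0.198, and DESeq2 alone called it. Cabp1, a calmodulin-like regulator of calcium channels, averaged 17.3 ± 1.40 CPM in KO and 21.4 ± 5.29 CPM in WT.

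The gene called lower was Slc8a1 (chromosome 17, 81373105 to 81738377, minus strand), one of 18 tested pumps and exchangers that clear calcium from the cytosol. It encodes NCX1, which trades sodium for calcium at the plasma membrane. Slc8a1 was at 68.0, 61.7, 53.5 and 69.3 CPM in KO animals a to d, against 94.0, 114, 132 and 120.2 CPM in WT animals a to d. All KO animals lay below all WT animals. The fitted log2 fold change was -0.86 ± 0.15 (SE), with an edgeR adjusted p of 0.0389. Of the 8 fits that left out 1 animal, that without WT a alone called it, and 10 of 11 other alternatives did, with adjusted p from 0.000109 to 0.154 over all 19. Its exons overlap Gm11096 and AC122399.1 on the opposite strand. The plasma membrane pump genes Atp2b2 (121 ± 6.96 CPM in KO and 101 ± 10.9 CPM in WT) and Atp2b4 (37.7 ± 15.01 and 51.3 ± 5.29 CPM in the same order) were not called.

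**Figure D5:**
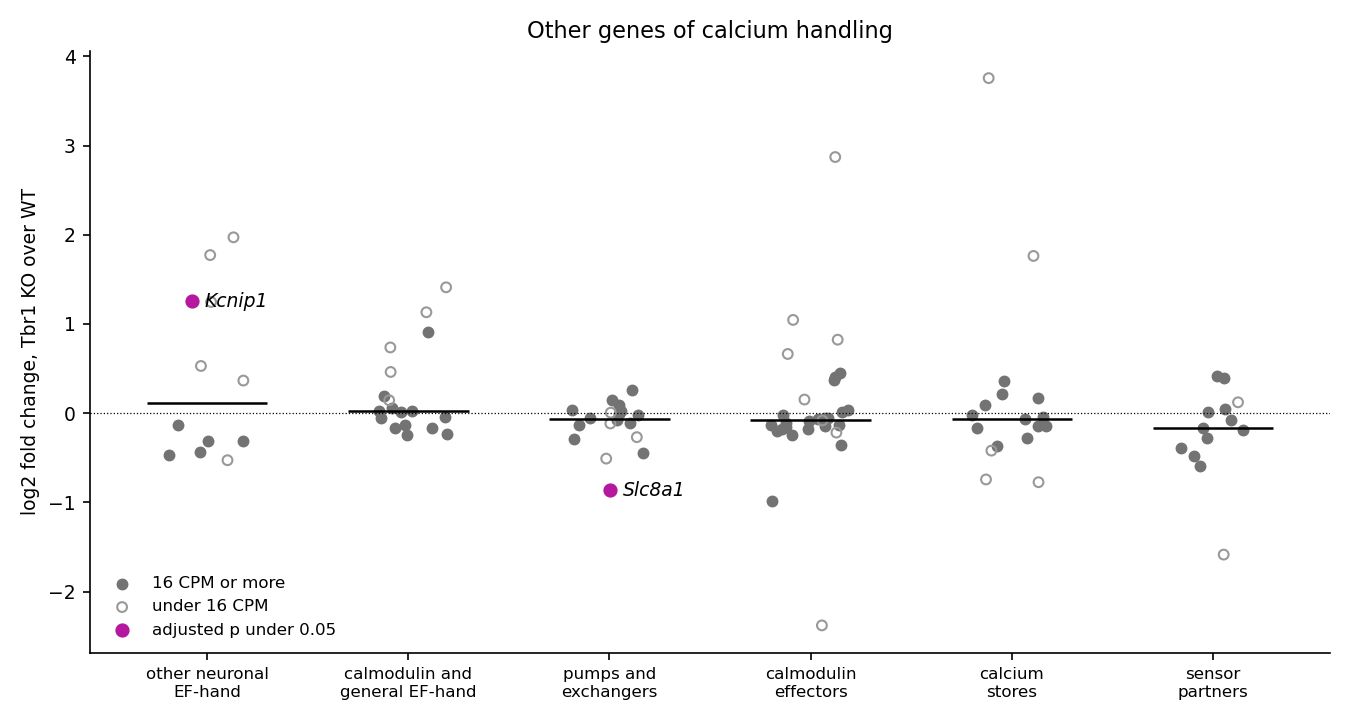
Log2 fold change, Tbr1 KO over WT, of tested genes in 6 lists of calcium handling, 1 point per gene, with the list median as a black line, open points for genes under 16 CPM in both genotypes and purple points for genes with an adjusted p under 0.05. Kcnip1 (1.26) and Slc8a1 (-0.86) are the 2 called genes, and the list medians lie between -0.16 and 0.12.

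None of 18 calmodulin and general EF-hand genes was called by edgeR, with 2 at an unadjusted p under 0.05 and 0 called by DESeq2 or limma-voom. The list median log2 fold change was 0.027. Cib2, Pdcd6, Pef1 and Chp1 were the largest differences at 16 CPM or more, from -0.24 (Pdcd6) to 0.91 (Cib2) in log2 fold change. S100a1, a relative of S100b just under that minimum and named after its values were seen, averaged 15.9 ± 2.45 CPM in KO and 7.27 ± 1.36 CPM in WT. It was the list's single gene without overlap, with a log2 fold change of 1.131 ± 0.31 (SE) that was not called (edgeR adjusted p = 0.285).

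Of 29 tested calmodulin effectors, edgeR called 0, with 4 at an unadjusted p under 0.05, while DESeq2 called 1 and limma-voom 0. Rcan2, a regulator of the phosphatase calcineurin, averaged 83.2 ± 17.2 CPM in KO and 165 ± 41.6 CPM in WT without overlap. Its log2 fold change was -0.99 ± 0.20 (SE) with an edgeR adjusted p of 0.0814, and 4 of 19 alternatives called it, with adjusted p from 0.000353 to 0.271. Camk2a, the alpha subunit of CaM kinase II, averaged 173 ± 10.2 CPM in KO and 130 ± 13.9 CPM in WT without overlap, and was not called. Camk2n1, an inhibitor of that kinase, and Camk1d gave log2 fold changes of 0.45 ± 0.29 and 0.37 ± 0.16 (SE).

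Calcium store genes and partners of the sensors gave no edgeR call among 17 and 13 tested genes. At an unadjusted p under 0.05 there were 0 store genes and 4 partners, and DESeq2 and limma-voom called 0 of either. The ryanodine receptor genes Ryr1 and Ryr2 had log2 fold changes of -0.37 ± 0.27 and -0.28 ± 0.36, Stim1 had 0.36 ± 0.31 and Rcn2 0.22 ± 0.22 (SE). Among partners, Nmt2, which encodes an enzyme that attaches myristoyl groups, averaged 58.0 ± 8.19 CPM in KO and 87.4 ± 9.44 CPM in WT without overlap, and was not called (edgeR adjusted p = 0.272). Ap2a2, an adaptor subunit of endocytosis, averaged 246 ± 19.6 CPM in KO and 324 ± 35.7 CPM in WT. Pi4kb, the kinase that NCS-1 binds, averaged 19.8 ± 3.53 CPM in KO and 14.9 ± 6.56 CPM in WT, and Adrbk1, a receptor kinase, 48.4 ± 6.91 and 67.6 ± 12.8 CPM in the same order.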

How the data were processed

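RNA from sorted pools was made into single-end Smart-seq2 and Nextera XT libraries, per the labels' protocols. Each deposited file lists raw counts of reads by gene symbol. The submitters' processing notes name TopHat2 2.0.10, HTSeq 0.6.1 and Trimmomatic 0.32 and the builds mm10 and GRCm38, but no role, annotation or strand setting. Lines that name no gene, among them reads in no feature (20.0% to 24.8% of listed reads), were left out.

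Counts were summed per animal, since 3 animals gave 2 libraries each. Genes passing filterByExpr (13957) were scaled by TMM and compared in edgeR 4.0.16 (R 4.3.3) by its quasi-likelihood test with robust fitting, and p-values were adjusted by Benjamini-Hochberg. The SE is the log2 fold change divided by the square root of F. On simulated counts for 13027 genes in this 4 against 4 comparison, the fit recovered 33% of genes changed 2-fold and 71% of those changed 4-fold, with 4 false calls. Marker lists used log2(CPM + 0.5). Positions and exon lengths came from GENCODE M21. Coding sequences were aligned with Biopython 1.88. Alternatives used DESeq2 1.42.0, limma 3.58.1 and other settings.

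The 10 genes and all lists were chosen with earlier results of these data known. From each list of calcium handling up to 4 genes were named, called ones first, then the largest differences at 16 CPM or more. Some items are not reported here. No sample was left out.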

Additional observations from a re-analysis of the deposited data

How the results depend on the processing

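The 40 genes called over all became 84 with the 11 libraries as separate samples and 156 with DESeq2, and ran from 17 to 44 when 1 animal was left out. The fits with libraries as samples or with the replicate block enter 3 animals with 2 pools each, so the animal is not their replicate. Of the 10 genes, 2 were called in each of the 11 other alternatives and 0 to 2 when 1 animal was left out: 0 without KO a, KO b, KO d, WT b or WT d, and 1 without WT c. Calcium list genes called were 4 with DESeq2 and 1 to 2 when 1 animal was left out. Library numbers did not pair the samples (correlation of deviations -0.027 to 0.12), and with the replicate block over libraries 1 to 5, 42 genes, 2 of the 10 and 2 list genes were called, Kcnip1 and Rcan2, so that Slc8a1 was not called and Rcan2 was. The log2 fold change of S100b was 0.074 with libraries as samples and ran from -0.47 to 0.59 when 1 animal was left out, and that of Hpcal4 ran from -0.051 to 0.24. The cause of these changes was not tested. Scaling moved the median of all genes by under 0.1. The WT order per kilobase kept all 10 places in each WT library and without any 1 WT animal, and 8 of 10 by the longest transcript, where Ncald stood above Ncs1. The share of promoters with GGTGTGA was 3.98% in the full 300-base window and 2.64% in the 200 bases before the start. The 5 nearest genes of Calb2 and of Hpcal1 were the same 5 with a minimum of 4 CPM. S100b had 2 to 106 reads per library and Pvalb 0, and the part of depth in these low levels was not tested.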
